A study of Homo sapiens with 18 samples.

Results

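The comparison described here sets the APOA4-KO line against HepG2 after 48 h at 1% oxygen, across every gene with enough counts. Its libraries are the 3 labelled APOA4-KO at 48 h and the 3 labelled HepG2 hypoxia at 48 h, taken by their labels, and they are 6 of the 18 libraries of the series. HepG2 is a human hepatoma cell line with many hepatocyte functions, and APOA4-KO is a line made from it by CRISPR-Cas9 with 2 guide RNAs against APOA4, which encodes apolipoprotein A-IV. In the series, both lines were also sequenced at 0 h, before hypoxia, and after 24 h of hypoxia, with 3 libraries for each line and time. The edited line was grown from picked single colonies with mutations in both alleles, and it was compared with unedited HepG2 rather than with a cloned control, so the edit and any other difference between the lines cannot be told apart. No cells were kept in normal oxygen for 48 h. Nothing in the labels says that the 3 libraries of a group came from separate cultures, so the p-values below measure the spread between these libraries, which may be technical.

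Apolipoprotein A-IV is a secreted protein of lipid-carrying particles, best known from the intestine and made in smaller amounts by the liver. Cells short of oxygen stabilise the transcription factor HIF, which raises genes of glycolysis, angiogenesis and the insulin-like growth factor (IGF) binding proteins. The hepatocyte makes glucose through PCK1 and G6PC1, whose transcription is raised in fasting and lowered by insulin. Immediate early genes, such as FOS and EGR1, are switched on within minutes of a growth or stress signal, and genes of DNA replication are transcribed mainly as cells enter S phase.

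The total of counts on genes was 76948826 to 82010524 in the 3 APOA4-KO libraries and 81663420 to 91604947 in the 3 HepG2 libraries at 48 h. Levels below are counts scaled to library size with TMM (CPM), and levels of different genes are set side by side only as FPKM, which is also divided by gene length. A gene was called where edgeR's quasi-likelihood test gave a Benjamini-Hochberg adjusted p under 0.05 and the log2 fold change, APOA4-KO over HepG2, was at least 1 in size. Of 61806 gene identifiers, 19743 were tested. At 48 h, 1258 were called higher in APOA4-KO, which is 6.37% of those tested, and 1418 were called lower, which is 7.18%. With scaling by library size alone, the split became 997 higher and 1935 lower, and the median log2 fold change of all tested genes moved from -0.04 to -0.19. The other line was at 0 counts in all 3 libraries for 100 of the genes called higher and for 112 of those called lower, and no fold is given for such genes below except as a bound. In each of the 6 refits that left out 1 of the 48 h libraries, 940 of the genes called higher and 970 of those called lower were called again. Counts of calls in a gene list are to be read beside the 6.37% and 7.18% of all tested genes. Where a called gene is said not to overlap between the lines, this describes its spread and is no second test.

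**Figure D1:**
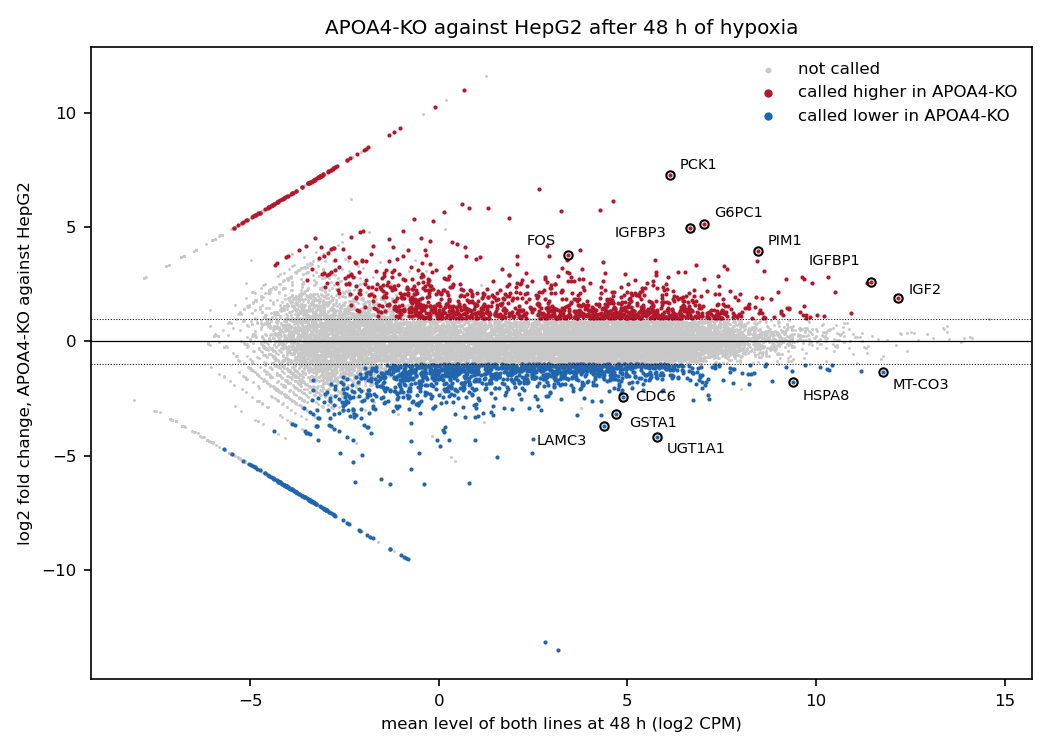
Each point is a tested gene with counts at 48 h, with the mean level of both lines in log2 CPM on the horizontal axis and the log2 fold change, APOA4-KO against HepG2, on the vertical axis. Dotted lines mark a log2 fold change of 1 in size, red and blue points are genes called higher and lower, circles mark named genes, and the points on the slanting lines at the left are genes at 0 counts in all 3 libraries of 1 line.

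Counts were still assigned to the edited gene in the edited line, and they do not show which transcript the reads came from. APOA4 (ENSG00000110244, chr11:116820700-116823306, minus strand, GRCh38) was at 7.65, 8.54 and 8.44 CPM in APOA4-KO and 18.9, 19.9 and 21.7 CPM in HepG2 at 48 h (log2 fold change -1.29, SE 0.081, adjusted p = 9e-11). In the annotation, 43.1% of its exon bases also lie in another gene. The 3 APOA4-KO libraries lay below the 3 HepG2 libraries without overlap, and a lower mRNA level is not a measure of the protein. At 0 h the log2 fold change of APOA4 was -0.23, and at 24 h it was -1.35. From 0 h to 48 h, APOA4 moved by 1.16 in HepG2 and by 0.09 in APOA4-KO on the log2 scale. The study's methods describe the 2 guides as selected against exons of APOA4, with clones checked by PCR and Sanger sequencing. The 2 guide sequences are shown, with the PAM (the bases Cas9 needs beside its target) in capitals, because they define the line.
sgRNA1: agtggtggctgttccgtgcgTGG
sgRNA2: ttggggaccgagacgagtctGGG
The first guide has an exact match on the strand opposite to the gene at chr11:116823497-116823519 (GRCh38.p14), 215 to 193 bases before the RefSeq start of APOA4, and the second has none in the 35116 RefSeq promoters or in the GENCODE v29 transcripts searched. The APOA4 promoter from RefSeq (chr11:116823255-116823554, minus strand), with the site of the first guide in capitals, reads as follows.
APOA4 promoter: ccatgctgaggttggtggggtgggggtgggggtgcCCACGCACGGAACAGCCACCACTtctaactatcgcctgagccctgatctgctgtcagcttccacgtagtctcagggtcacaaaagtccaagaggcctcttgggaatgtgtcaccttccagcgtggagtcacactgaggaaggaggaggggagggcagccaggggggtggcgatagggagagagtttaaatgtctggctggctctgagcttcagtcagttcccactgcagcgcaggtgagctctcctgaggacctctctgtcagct

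Among genes that averaged 200 counts or more in the line with the higher level and were called in all 6 refits, PCK1 had the largest positive log2 fold change, 7.28, followed by ATP10A, a phospholipid flippase, at 6.66, the heparan sulfotransferase HS3ST5 at 5.84, plasminogen (PLG) at 5.82 and the receptor ROBO4 at 5.73. The exons of ROBO4 share 16.9% of their bases with another gene, so its counts are less certain. The value of PLG rests on 1 library, since its counts were 196, 283 and 277 in APOA4-KO and 0, 0 and 16 in HepG2, and the fitted log2 fold change went to 11.15 without HepG2 replicate 3 and to 5.22 without replicate 1. HS3ST5, with 6, 16 and 0 counts in HepG2, ran from 5.25 to 7.15 when 1 library was left out, with the highest value without HepG2 replicate 2. The negative end was led by the glucuronosyltransferase UGT1A9 at -6.2, nitric oxide synthase NOS2 at -4.33, the glutathione transferase GSTA2 at -4.32, UGT1A1 at -4.18 and the laminin chain LAMC3 at -3.73. UGT1A9 was at 0, 10 and 0 counts in APOA4-KO and 316, 461 and 127 in HepG2, and its fitted value went to -11.15 without APOA4-KO replicate 2, so the order of these genes is not firm. Ranked by FPKM in the higher line instead, the most abundant genes called higher were IGFBP1 (2699 FPKM in APOA4-KO and 492 in HepG2) and lysozyme (LYZ, 1445 and 679.9). The most abundant genes called lower were 8 transcripts of the mitochondrial genome, led by MT-CO3 (2292 FPKM in APOA4-KO and 6427 in HepG2). Pepsinogen C (PGC) and glutathione peroxidase GPX2 followed them. Among the 8 were the transfer RNAs MT-TN, MT-TC, MT-TY and MT-TA, of 66 to 73 bases. FPKM divides by length, so the rank of these transfer RNAs over PGC and GPX2 rests on how short they are.

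Immediate early genes were higher in the edited line as a group. Of 32 tested, 20 were called higher (62.5%, against 6.37% of all tested genes) and none lower, and 31 had a positive log2 fold change. Their median log2 fold change was 1.80, beside -0.04 over all tested genes, and 0.97 when limma was run on log2(FPKM + 1), a scale that understates the change of low genes. FOS (ENSG00000170345, chr14:75278774-75282230, plus strand), a subunit of the AP-1 transcription factor, was at 20.3, 19 and 20.7 CPM in APOA4-KO and 0.872, 1.44 and 2.1 CPM in HepG2 (log2 fold change 3.77, SE 0.27, adjusted p = 5.5e-10). DUSP1, a phosphatase that switches off MAP kinases, was at 169, 168 and 154 CPM in APOA4-KO and 19.5, 19.5 and 20.3 CPM in HepG2 (log2 fold change 3.05, SE 0.078, adjusted p = 2.3e-16). CCN1, a secreted matrix protein, was at 210.0, 207 and 199.9 CPM in APOA4-KO and 20.1, 19.9 and 20.2 CPM in HepG2 (log2 fold change 3.36, SE 0.058, adjusted p = 1e-18). For these 3 genes, every APOA4-KO library lay above every HepG2 library, and the libraries of a line differed most for FOS in HepG2. The zinc finger factor EGR1 was at 42.3, 38.9 and 41.6 CPM in APOA4-KO and 8.7, 9.92 and 9.21 CPM in HepG2, with a log2 fold change of 2.14. The survival gene IER3, some of whose exon bases (26.5%) lie in another gene as well, had a log2 fold change of 2.75 and MYC one of 1.45. Again the lines did not overlap. Among MAP kinase phosphatases and Sprouty proteins, inhibitors of the same signalling route, DUSP5 (2.83), DUSP6 (2.26), SPRY4 (2.1) and SPRY2 (1.43) were called higher, and DUSP4 (0.71) was not.

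Not every gene of this kind moved. ATF3 had a log2 fold change of 0.93, JUND of 0.69, IER2 of 0.23 and FOSL1 of 0.01, and none was called. Before hypoxia, the median of the list was -0.12, with 1 member called lower in APOA4-KO and none higher, and at 24 h it was 0.22. In the test of the difference at 48 h against the difference at 0 h, 21 members were called larger at 48 h, where 3.43% of all tested genes were. From 0 h to 48 h, the median member changed by 1.995 in APOA4-KO and by -0.17 in HepG2 on the log2 scale. DUSP1 moved by 3.22 in APOA4-KO and by 0.08 in HepG2, and FOS by 4.04 and 0.69.

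The promoters of 23 of these genes were in the RefSeq table (250 bases before to 50 after the start, GRCh38.p14). TATAAA, the core of the TATA box, was found on either strand in 6 of 23 (26.1%), in 11.5% of 828 promoters of genes called higher, in 5.79% of 881 of genes called lower and in 6.45% of 12831 of all tested genes. The 3 promoters below have it in capitals, 30 to 33 bases before the start, and DUSP1 also holds TGACGTCA, the full cyclic AMP response element, 125 bases before its start.
FOS promoter, chr14:75278578-75278877: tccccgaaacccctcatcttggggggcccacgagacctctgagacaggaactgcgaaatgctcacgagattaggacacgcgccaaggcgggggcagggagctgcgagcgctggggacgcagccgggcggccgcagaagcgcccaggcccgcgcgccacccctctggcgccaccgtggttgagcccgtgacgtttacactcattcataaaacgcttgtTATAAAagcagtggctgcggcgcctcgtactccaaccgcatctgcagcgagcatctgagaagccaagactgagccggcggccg
FOSB promoter, chr19:45467746-45468045: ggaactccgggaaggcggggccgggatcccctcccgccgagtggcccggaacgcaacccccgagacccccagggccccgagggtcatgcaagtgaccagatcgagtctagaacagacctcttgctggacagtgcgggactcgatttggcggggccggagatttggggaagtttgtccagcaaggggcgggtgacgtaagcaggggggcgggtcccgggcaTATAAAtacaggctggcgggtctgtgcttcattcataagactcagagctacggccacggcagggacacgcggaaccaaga
DUSP1 promoter, chr5:172771146-172771445, minus strand: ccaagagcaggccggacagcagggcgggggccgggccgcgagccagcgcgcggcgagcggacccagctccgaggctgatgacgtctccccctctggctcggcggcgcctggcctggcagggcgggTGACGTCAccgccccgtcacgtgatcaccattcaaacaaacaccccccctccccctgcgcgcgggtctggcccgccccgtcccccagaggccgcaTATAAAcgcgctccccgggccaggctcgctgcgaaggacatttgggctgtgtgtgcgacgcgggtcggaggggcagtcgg
TGACGTCA was in 2 of the 23 promoters (8.70%), in 3.74% of those of genes called higher and in 3.02% of all tested. TGANTCA, the AP-1 site, was in 1 of 23, in 6.88% of genes called higher, in 4.31% of genes called lower and in 4.99% of all tested. These are counts of letters in a fixed window and do not show that a factor binds.

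**Figure D2:**
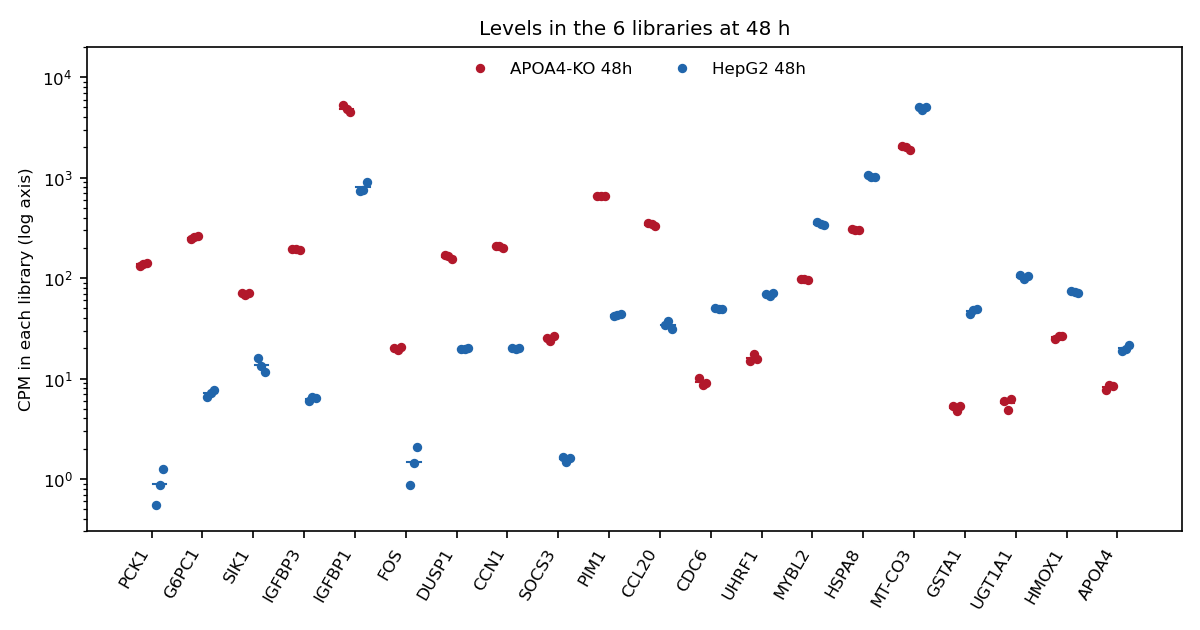
Levels of 20 genes in each of the 6 libraries at 48 h, in CPM on a log axis, with APOA4-KO in red, HepG2 in blue and a bar at each group's mean. The libraries of the lines do not overlap for any gene drawn, and all were drawn from called genes, so this is no separate support. The spread within a line is widest for PCK1 and FOS in HepG2.

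Genes of glucose output were higher in the edited line, with PCK1 and G6PC1 far ahead of the others. PCK1 (ENSG00000124253, chr20:57561080-57568112, plus strand), which makes phosphoenolpyruvate for gluconeogenesis, was at 133, 139 and 143 CPM in APOA4-KO and 0.553, 0.866 and 1.26 CPM in HepG2 (log2 fold change 7.28, SE 0.17, adjusted p = 5.4e-17). Its HepG2 libraries held only 52, 73 and 114 counts. G6PC1 (ENSG00000131482, chr17:42900797-42913369, plus strand), the catalytic subunit that releases free glucose, was at 245, 255 and 260.3 CPM in APOA4-KO and 6.56, 7.12 and 7.65 CPM in HepG2 (log2 fold change 5.16, SE 0.069, adjusted p = 3.5e-20). Both genes were already higher in APOA4-KO at 0 h, by a log2 fold change of 2.75 and 2.96, and at 24 h G6PC1 stood at 1.03 while PCK1 stood at 5.32. In the G6PC1 promoter, the letters in capitals are ATTGG, the reverse of CCAAT, 219 bases before the start and TATAAA 29 bases before it.
G6PC1 promoter, chr17:42900549-42900848: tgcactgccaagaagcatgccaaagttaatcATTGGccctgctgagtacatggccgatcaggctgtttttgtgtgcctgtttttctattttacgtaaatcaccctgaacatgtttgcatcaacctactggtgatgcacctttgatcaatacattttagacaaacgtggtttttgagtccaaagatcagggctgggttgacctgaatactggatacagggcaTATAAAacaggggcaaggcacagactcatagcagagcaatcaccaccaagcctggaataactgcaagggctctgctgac
Regulators of these enzymes were called higher too. SIK1, a kinase that restrains cyclic AMP signalling, was at 71.8, 67.7 and 71 CPM in APOA4-KO and 16.1, 13.3 and 11.6 CPM in HepG2. PPARGC1A, the coactivator PGC-1α, was at 44.7, 46.5 and 43.7 CPM in APOA4-KO and 13.7, 13.9 and 12.9 CPM in HepG2. FOXO1, the factor that insulin keeps out of the nucleus, was at 65.1, 63.8 and 65.3 CPM in APOA4-KO and 24.8, 26.1 and 26.2 CPM in HepG2. Their log2 fold changes were 2.36, 1.74 and 1.33, and the groups did not overlap.

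In all, 9 of the 20 genes of glucose output were called higher and 1 lower, with a median log2 fold change of 0.92, or 0.46 on log2(FPKM + 1). The exception was GPD1, glycerol-3-phosphate dehydrogenase, at 2.53, 2.31 and 2.13 CPM in APOA4-KO and 10.6, 12.8 and 12.9 CPM in HepG2 (log2 fold change -2.38, SE 0.11, adjusted p = 1e-12). KLF15 (2.06), the tyrosine aminotransferase TAT (1.55) and GOT1 (1.23) were among those called higher. The mitochondrial isoform PCK2 (0.37), pyruvate carboxylase PC (0.23), the glucose 6-phosphate carrier SLC37A4 (-0.48) and FBP1 (-0.75) were not called. FBP1 was scarce in both lines, at 0.364 ± 0.0101 and 0.611 ± 0.160 CPM (mean ± SD, n = 3).

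Of 30 HIF targets tested, 15 were called higher (50.0%, against 6.37% of all tested genes) and none lower. The median log2 fold change was 0.96, beside 0.45 before hypoxia and 1.29 at 24 h. IGFBP3, which binds IGFs in the circulation, was at 195, 196 and 193 CPM in APOA4-KO and 5.99, 6.61 and 6.35 CPM in HepG2 (log2 fold change 4.95, SE 0.077, adjusted p = 2.4e-19). IGFBP1 was at 5275, 4806 and 4528 CPM in APOA4-KO and 739.7, 748 and 913 CPM in HepG2 (log2 fold change 2.61, SE 0.071, adjusted p = 5.2e-16). None of the APOA4-KO libraries came near the HepG2 range for both secreted proteins. The angiogenic factor VEGFA (1.79), carbonic anhydrase CA9 (2.09), the MYC antagonist MXI1 (1.75), the oxygen sensor EGLN3 (1.7), the lipoprotein lipase inhibitor ANGPTL4 (1.69) and NDRG1 (1.08) were called higher.

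Other members of the HIF list stood level or below HepG2. Erythropoietin (EPO) was at 13.6, 13.6 and 12 CPM in APOA4-KO and 13.1, 13.3 and 13.8 CPM in HepG2, and the groups overlapped (log2 fold change -0.04, SE 0.095, adjusted p = 0.79). The glucose carrier SLC2A1 had a log2 fold change of 0.27, the pyruvate dehydrogenase kinase PDK1 of -0.38 and PFKFB4 of -0.27, and none was called. At 24 h, the log2 fold change of PDK1 was 1.39 and that of EPO 1.31. From 0 h to 48 h, PDK1 moved by 1.3 in APOA4-KO and by 2.37 in HepG2, while IGFBP3 moved by 4.85 and 0.76. Among 27 genes of glycolysis and lactate, the hexokinases HK1 (2.86) and HK2 (1.46) and the kinase PDK4 (1.43) were called higher and none lower, and the median was 0.38, or 0.23 with scaling by library size alone and 0.19 on log2(FPKM + 1). ACGTG, the first of 2 forms of the HIF core site, was in 11 of 23 promoters of the HIF list (47.8%). It was in 24.6% of those of genes called higher and in 25.9% of all tested. GCGTG, the second form, was in 13 of 23 (56.5%), in 44.4% of genes called higher and in 48.4% of all tested.

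Genes around IGF and insulin signalling formed another group with calls in 1 direction. Of 34 tested, 14 were called higher (41.2%, against 6.37% of all tested genes) and none lower. The median was 0.90, or 0.28 on log2(FPKM + 1), and 3 of the 14 (IGFBP1, IGFBP3 and VEGFA) are also in the HIF list. The fetal growth factor IGF2, of whose exon bases 75% also lie in another gene, was at 7315, 7328 and 7317 CPM in APOA4-KO and 1998, 1956 and 1939 CPM in HepG2 (log2 fold change 1.9, SE 0.019, adjusted p = 8.8e-22). Counts of IGF2 and of the overlapping gene cannot be told apart by these files. Of the receptors, the insulin receptor INSR was at 126, 129 and 137 CPM in APOA4-KO and 50, 51.4 and 52.9 CPM in HepG2 and called higher, with a log2 fold change of 1.34. IGF1R (0.9) and IGF2R (0.21) were not called. IRS1, the adaptor below the insulin receptor, had a log2 fold change of 1.43, and IRS2 was near absent at 0.339 ± 0.165 and 0.372 ± 0.181 CPM. The ligands PDGFB (2.81) and, at lower levels, HBEGF (2.48) and AREG (2.36) of the EGF family were called higher, as was the receptor ERBB3 (1.08). PDGFB was at 119, 118 and 120.2 CPM in APOA4-KO and 17.6, 16.3 and 17 CPM in HepG2. It had a log2 fold change of 0.17 at 0 h and 0.15 at 24 h, both far under its value at 48 h.

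In the list of IL-6, STAT3 and NF-kB response genes, 13 of 30 were called higher (43.3%, against 6.37% of all tested genes) and 1, IRF1, lower. The median was 0.69, or 0.185 on log2(FPKM + 1). SOCS3, the feedback inhibitor of STAT3, was at 25.4, 23.8 and 26.5 CPM in APOA4-KO and 1.66, 1.46 and 1.6 CPM in HepG2 (log2 fold change 4.0, SE 0.18, adjusted p = 7.2e-13). The kinase PIM1 was at 659, 662 and 653 CPM in APOA4-KO and 41.8, 43 and 43.6 CPM in HepG2 (log2 fold change 3.94, SE 0.034, adjusted p = 1.1e-22). The chemokine CCL20 was at 352, 342 and 331 CPM in APOA4-KO and 34.3, 37.8 and 31.4 CPM in HepG2, with a log2 fold change of 3.31. All 3 separated the lines completely, and SOCS3 had a log2 fold change of -0.11 at 0 h and 0.78 at 24 h. CEBPD (2.15), TNFAIP3 (1.73), ICAM1 (1.23) and the receptor chains IL6R (1.45) and LIFR (1.58) were called higher. STAT3 itself (0.34), IL6ST (0.34) and NFKBIA (0.08) were not. The chemokine CCL2 had no count in the 3 HepG2 libraries and 25, 8 and 25 in APOA4-KO, at least 7.49-fold higher when HepG2 is set at 3 counts per library.

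DNA replication was the list with the most genes called lower. Of 47 tested, 29 were called lower (61.7%, against 7.18% of all tested genes) and none higher, and 46 had a negative log2 fold change, with a median of -1.19. CDC6 (ENSG00000094804, chr17:40287633-40304657, plus strand), which loads the replicative helicase, was at 10, 8.66 and 9 CPM in APOA4-KO and 50.4, 48.9 and 49.4 CPM in HepG2 (log2 fold change -2.42, SE 0.058, adjusted p = 9.6e-17). PCNA, the clamp that holds polymerases on DNA, was at 58.2, 55 and 56.9 CPM in APOA4-KO and 211, 212 and 211 CPM in HepG2 (log2 fold change -1.9, SE 0.034, adjusted p = 1.4e-18). UHRF1, which guides maintenance methylation, was at 14.8, 17.6 and 15.6 CPM in APOA4-KO and 70, 66.3 and 71.2 CPM in HepG2 (log2 fold change -2.11, SE 0.06, adjusted p = 1e-15). In all 3, the highest APOA4-KO library stayed well under the lowest HepG2 library. All 4 GINS subunits of the helicase were called lower, from -1.58 for GINS4 to -2.17 for GINS3. Among the 6 MCM subunits of the helicase core, MCM2 (-1.16), MCM4 (-1.25), MCM5 (-1.29), MCM6 (-1.26) and MCM7 (-1.07) were called lower and MCM3 (-0.95) missed the limit on the fold. Of the enzymes that supply nucleotides, TK1 (-2.03), RRM2 (-1.4) and RRM1 (-1.01) were called lower and TYMS (-1.0) just missed the limit. RRM1 and ORC1 (-1.01) were not called in every refit.

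E2F1 (-0.82), a factor that drives these genes, was not called, whereas E2F2 (-1.94), present at 3.41 ± 0.367 CPM in APOA4-KO and 13.1 ± 1.05 in HepG2 (mean ± SD, n = 3), was. Cyclin E, which starts S phase, was lower as CCNE1 (-1.19) and as CCNE2 (-2.7). The licensing factor CDT1 (0.06) and the primase PRIM1 (-0.01) overlapped with HepG2. Before hypoxia, no member of the list was called in either direction and the median was 0.07, and at 24 h it was -0.19. The test of the 48 h difference against the 0 h difference called 33 members, all towards lower levels in APOA4-KO at 48 h, where 3.99% of all tested genes were called in that direction. From 0 h to 48 h, the median member moved by -1.15 in APOA4-KO and by 0.10 in HepG2. In RNA of a whole culture, fewer cells in a state and less RNA per cell cannot be told apart.

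Of 44 genes of mitosis tested, 2 were called lower, MYBL2 and SPC25 (4.55%, against 7.18% of all tested genes), and 42 had a negative log2 fold change, with a median of -0.53. MYBL2, a transcription factor of the S to G2 passage, was at 97.3, 97 and 96.8 CPM in APOA4-KO and 360.3, 343 and 337 CPM in HepG2 (log2 fold change -1.84, SE 0.027, adjusted p = 1.5e-19). The proliferation marker MKI67 was at 70.8, 69.9 and 74.3 CPM in APOA4-KO and 107, 109.8 and 103 CPM in HepG2, which separated the lines without reaching the limit on the fold (log2 fold change -0.57, SE 0.041, adjusted p = 7.2e-10). CDK1 (-0.13), CCNB2 (-0.05) and UBE2C (0.07) lay close to 0. Among G1 cyclins, CDK inhibitors and p53 targets, CCND3 (-1.67), CCND2 (-1.25) and the death receptor FAS (-1.47) were called lower and GDF15 (2.55) and GADD45B (1.61) higher, while CDKN1A (-0.31) was not called.

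CCAAT, the core of the NF-Y site, was found on either strand in 22 of 42 promoters of the replication list (52.4%), in 42.3% of 881 promoters of genes called lower, in 29.7% of 828 of genes called higher and in 36.0% of all tested. The 3 promoters below are those of genes of the replication and mitosis lists with the letters CCAAT, or ATTGG where it lies on the other strand, in capitals. CDC6 held it 50, 103 and 126 bases before the start, UHRF1 86 bases before and SPC25 56 and 88 bases before.
CDC6 promoter, chr17:40287629-40287928: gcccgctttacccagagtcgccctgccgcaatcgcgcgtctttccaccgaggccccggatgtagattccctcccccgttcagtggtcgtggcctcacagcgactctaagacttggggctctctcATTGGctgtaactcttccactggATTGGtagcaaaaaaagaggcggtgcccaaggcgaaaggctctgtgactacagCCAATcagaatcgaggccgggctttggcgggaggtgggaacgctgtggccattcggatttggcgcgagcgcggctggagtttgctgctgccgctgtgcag
UHRF1 promoter, chr19:4909251-4909550: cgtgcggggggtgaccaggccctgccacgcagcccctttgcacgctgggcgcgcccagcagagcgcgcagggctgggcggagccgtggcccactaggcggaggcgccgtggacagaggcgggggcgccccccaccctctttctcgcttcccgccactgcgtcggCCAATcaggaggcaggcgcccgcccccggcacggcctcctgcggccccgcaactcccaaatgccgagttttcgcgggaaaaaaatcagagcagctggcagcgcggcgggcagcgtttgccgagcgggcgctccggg
SPC25 promoter, chr2:168890381-168890680, minus strand: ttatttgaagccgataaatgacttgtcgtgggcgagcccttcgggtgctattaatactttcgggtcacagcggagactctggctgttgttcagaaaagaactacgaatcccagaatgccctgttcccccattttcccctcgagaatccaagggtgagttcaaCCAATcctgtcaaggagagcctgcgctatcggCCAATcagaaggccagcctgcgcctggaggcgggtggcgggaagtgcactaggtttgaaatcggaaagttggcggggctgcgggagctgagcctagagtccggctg
The promoters of GINS3 and MYBL2, read in the same way, held no CCAAT.

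**Figure D3:**
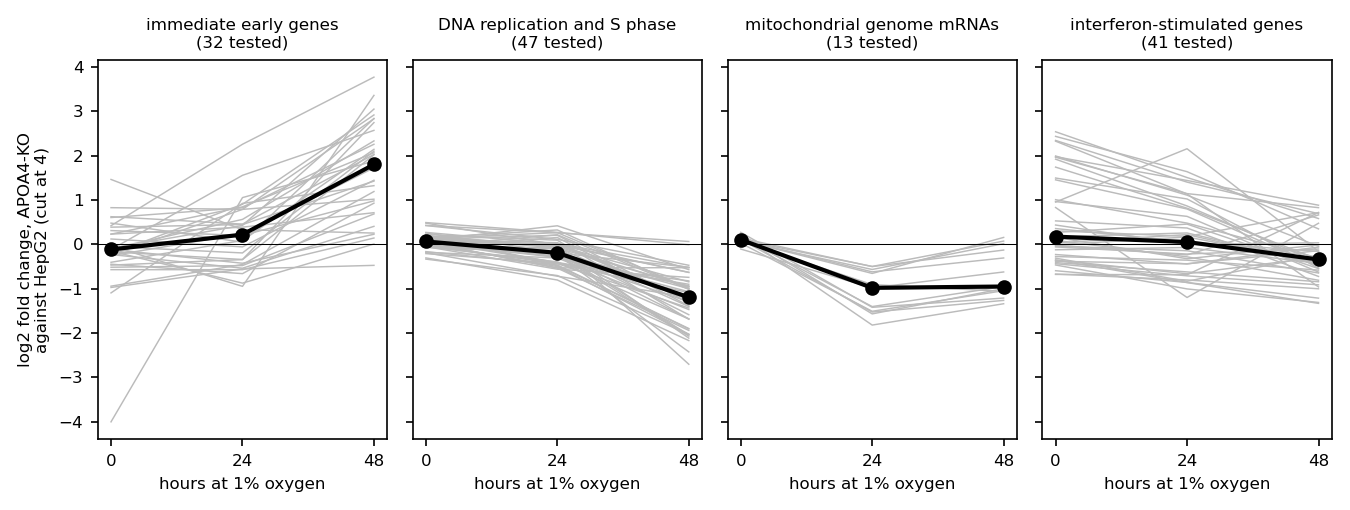
Log2 fold change of APOA4-KO against HepG2 at 0, 24 and 48 h for the tested members of 4 gene lists, 1 grey line for each gene (cut at 4 in size) and the list's median in black. The medians of immediate early genes (1.80) and of DNA replication genes (-1.19) left 0 mainly between 24 h and 48 h, that of the mitochondrial mRNAs was at -0.98 by 24 h, and interferon-stimulated genes went from 0.17 at 0 h to -0.34.

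Transcripts of the mitochondrial genome were lower in the edited line, unevenly along the genome. Of the 13 mRNAs, 5 were called lower (38.5%, against 7.18% of all tested genes) and none higher, with a median of -0.95. MT-CO3 (ENSG00000198938), a core subunit of cytochrome c oxidase, was at 2056, 1997 and 1873 CPM in APOA4-KO and 5103, 4771 and 5110.0 CPM in HepG2 (log2 fold change -1.34, SE 0.032, adjusted p = 9.7e-17). MT-ND1, a core subunit of complex I, was at 756, 766 and 775 CPM in APOA4-KO and 1879, 1829 and 1806 CPM in HepG2 (log2 fold change -1.26, SE 0.021, adjusted p = 6.2e-19). MT-CO1, the most abundant of them in both lines at 11240.0 FPKM in APOA4-KO and 11180.0 FPKM in HepG2, was at 18660.0, 19500.0 and 19010.0 CPM in APOA4-KO and 17710.0, 16460.0 and 17120.0 CPM in HepG2 (log2 fold change 0.16, SE 0.021, adjusted p = 4e-06). In all 3 libraries MT-CO1 lay slightly above HepG2 on this scale, and its log2 fold change was 0.01 with scaling by library size alone, while its neighbours were lower on both. MT-CYB (-1.21), MT-ND3 (-1.06, not in every refit) and MT-ND2 (-1.04) were called lower, and MT-ATP8 (-1.0), MT-ATP6 (-0.95) and MT-CO2 (-0.62) missed the limit on the fold. MT-ND4 (0.07), MT-ND4L (0.02) and MT-ND6 (-0.13) stayed near 0. At 24 h, the same comparison gave -0.65 for MT-CO1, -1.52 for MT-ND1 and -1.82 for MT-CO3.

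**Figure D4:**
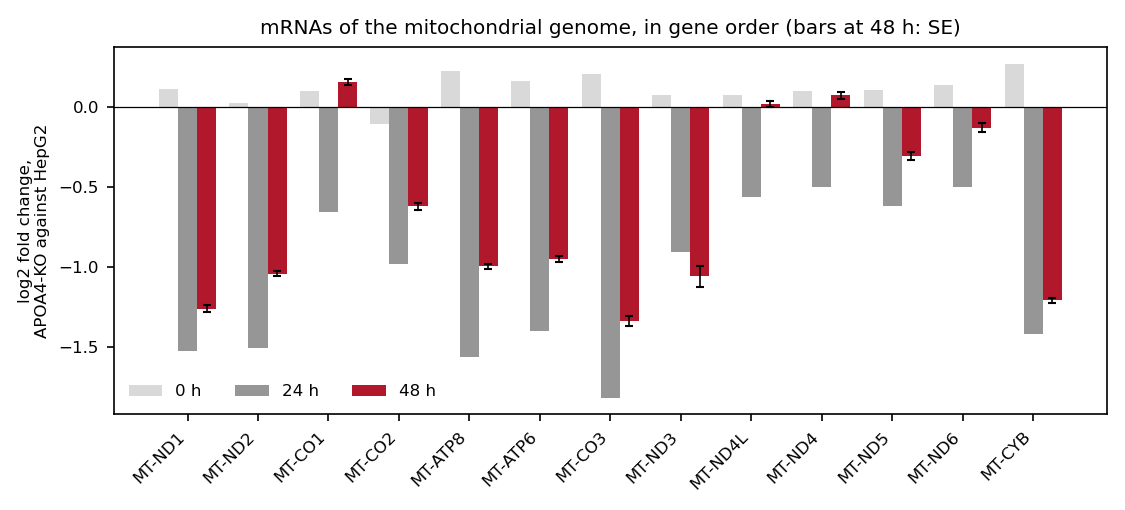
Log2 fold change of APOA4-KO against HepG2 for the 13 mRNAs of the mitochondrial genome in gene order, at 0 h (light grey), 24 h (dark grey) and 48 h (red, with bars of 1 SE). At 48 h the values ran from -1.34 for MT-CO3 to 0.16 for MT-CO1.

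These 13 mRNAs took 3.64% of all counts in APOA4-KO at 48 h (3.625% to 3.652% over the 3 libraries) and 4.85% in HepG2 (4.758% to 4.947%), after 6.81% and 6.21% at 0 h. Of all 37 tested genes of the mitochondrial chromosome, transfer RNAs included, 17 were called lower (45.9%, against 7.18% of all tested genes). The nuclear partners were mostly lower too, by less than the limit on the fold. Of 78 nuclear genes of the respiratory chain, 2 were called lower and none higher, with a median of -0.33, and of 78 mitochondrial ribosomal proteins, 2 were called lower, with a median of -0.31. Without the limit on the fold, 53 and 47 of them were lower at an edgeR adjusted p under 0.05, and 8 and 13 were higher. Of all 19743 tested genes, 5391 were lower and 4641 higher in this way. Of 83 cytosolic ribosomal proteins, 1 was called lower, and their median was 0.06, or -0.09 with scaling by library size alone.

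Enzymes that conjugate drugs and bilirubin were lower. Of 35 tested, 11 were called lower (31.4%, against 7.18% of all tested genes) and 3 higher (8.57%, against 6.37%). The median was -0.73, or -0.45 on log2(FPKM + 1). UGT1A1, which conjugates bilirubin, was at 6.03, 4.81 and 6.31 CPM in APOA4-KO and 108, 98.8 and 104 CPM in HepG2 (log2 fold change -4.18, SE 0.17, adjusted p = 1.3e-13). At 0 h, its log2 fold change was already -5.01. UGT1A4 had no count in any of the 3 APOA4-KO libraries and 93, 109 and 79 in HepG2, at least 25.2-fold lower when APOA4-KO is set at 3 counts per library. The genes of the UGT1A family share their last exons (49.9% of the exon bases of UGT1A1 lie in other genes), so their separate values are uncertain. GSTA1, a glutathione transferase of hepatocytes, was at 5.36, 4.75 and 5.33 CPM in APOA4-KO and 43.8, 48.5 and 49.2 CPM in HepG2 (log2 fold change -3.2, SE 0.079, adjusted p = 1.5e-16). Unlike UGT1A1, it had a smaller difference of -1.02 at 0 h, and the 48 h difference exceeded that at 0 h by -2.18 on the log2 scale (adjusted p = 6.3e-12). NAT1 (-1.31) and TPMT (-1.1) were called lower and UGT2B4 (1.53) higher. Of the phase 1 enzymes, 3 of 33 were called in each direction, among them POR (1.25), the reductase that feeds electrons to cytochromes P450, and the aldehyde dehydrogenase ALDH1A1 (-1.87).

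Genes of the antioxidant factor NRF2 and of heat shock were called lower or not at all. For NRF2 and glutathione, 7 of 35 were called lower, with a median of -0.34. Heme oxygenase HMOX1 was at 25, 26.3 and 26.5 CPM in APOA4-KO and 74.5, 73 and 71.3 CPM in HepG2 (log2 fold change -1.49, SE 0.041, adjusted p = 7.2e-16). The quinone reductase NQO1 (-1.39), GPX1 (-1.21) and GPX2 (-1.74) were also called lower, while GCLM (-0.05), TXNRD1 (0.19) and SRXN1 (0.44) were not called. For cytosolic chaperones, 7 of 26 were called lower (26.9%), with a median of -0.47. HSPA8, the constitutive HSP70, was at 309.5, 298 and 304 CPM in APOA4-KO and 1054, 1013 and 1021 CPM in HepG2 (log2 fold change -1.76, SE 0.02, adjusted p = 2.4e-21). The inducible HSPA1A (-1.69) and HSPA1B (-1.63), near-identical copies between which reads may be split, HSPH1 (-1.14) and HSP90AA1 (-1.09) were called lower. HSP90AB1 (0.31), the mitochondrial HSPD1 (-0.04) and HSPA9 (0.08), and HSF1 (0.14) were not. HSPA8 was at the same level in both lines at 0 h, with a log2 fold change of 0.0, and at -0.92 at 24 h.

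Transcription factors of the hepatocyte were mostly level or higher. Of 33 tested, 9 were called higher (27.3%, against 6.37% of all tested genes) and 2 lower (6.06%, against 7.18%). HNF4A, the central one, had a log2 fold change of 0.17 and FOXA1 of -0.26, and neither was called. CEBPA, which restrains growth of hepatocytes, was called lower at 65, 64.1 and 65.9 CPM in APOA4-KO and 177, 174 and 187 CPM in HepG2 (log2 fold change -1.46, SE 0.045, adjusted p = 2.9e-15). Its exons share 43.4% of their bases with an overlapping gene. FOXA2 (1.46), ONECUT1 (1.34), RORA (1.76) and HNF4G (2.12) were called higher.

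Secreted plasma proteins moved in both directions. Of 26 acute phase proteins, 5 were called higher and 3 lower, of 25 coagulation factors 4 higher and none lower, and of 25 complement genes 4 higher and 1 lower. Alpha-fetoprotein (AFP), a fetal serum protein, was at 999.5, 1037 and 1027 CPM in APOA4-KO and 163, 150.3 and 155 CPM in HepG2, and its log2 fold change of 2.71 stood beside 2.88 at 0 h. Transthyretin (TTR) was at 148, 144 and 129.7 CPM in APOA4-KO and 41.2, 41.3 and 43.2 CPM in HepG2, with 1.75 at 48 h and 1.46 at 0 h. For both, the difference was present before hypoxia at about the same size. MASP1 (3.04), SERPING1 (2.65) and ceruloplasmin (CP, 1.17) were called higher, and hemopexin (HPX, -1.36) and the vitamin D carrier GC (-2.11) lower. Albumin (ALB, 0.18), SERPINA1 (0.15) and C3 (0.6) were not called. Hepcidin (HAMP), the iron hormone, was at 19.7, 19.7 and 17.8 CPM in APOA4-KO and 6.98, 8.77 and 7.73 CPM in HepG2. It was higher in APOA4-KO at 48 h (1.28) and lower at 0 h (-1.48, adjusted p = 7.7e-07).

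For most lipid lists, few genes were called, and the calls went in both directions. All tested genes gave 6.37% higher and 7.18% lower. Of 19 genes of lipid droplets and lipolysis, 4 were called higher (21.1%) and 1 lower (5.26%), and 2 were called in all 6 refits. These were PLIN2 (1.14) and, lower, BSCL2 (-1.48), with 51.9% of its exon bases in another gene. Of 34 genes of fatty acid uptake and oxidation, 4 were called higher (11.8%) and 1 lower (2.94%). The higher ones were FABP1 (1.94) and the acyl-CoA synthetases ACSL3 (1.18), ACSL4 (1.34) and ACSL5 (1.11). Of 28 genes of fatty acid and triglyceride synthesis, 3 were called higher (10.7%) and 2 lower (7.14%). The 2 lower ones were the enzymes of the last step of triglyceride synthesis. DGAT1 was at 48.2, 46.4 and 48.5 CPM in APOA4-KO and 156, 149.6 and 156 CPM in HepG2 (log2 fold change -1.69, SE 0.034, adjusted p = 9e-18). DGAT2 was at 37.2, 40.4 and 36.3 CPM in APOA4-KO and 108.7, 112 and 107 CPM in HepG2 (log2 fold change -1.52, SE 0.047, adjusted p = 3.3e-15). Both were under HepG2 in every library. Of 31 genes of cholesterol synthesis and uptake, 2 were called in each direction. The fatty acid synthase FASN (0.35) and the desaturase SCD (0.21) were not called. Of 26 genes of apolipoproteins and lipoprotein assembly, 3 were called higher and APOA4 alone lower. APOB (0.42), APOA1 (-0.43) and APOE (0.01) were not called.

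Among genes of the matrix, guidance and growth control, counts of calls leaned towards higher levels in APOA4-KO. Of 57 laminins, collagens and other matrix genes, 12 were called higher (21.1%) and 5 lower (8.77%). Of 54 guidance and Notch genes, 14 were higher (25.9%) and 3 lower (5.56%). Of 47 genes of TGF-beta, BMP and activin, 9 were higher (19.1%) and none lower. All tested genes gave 6.37% higher and 7.18% lower. The Notch ligand JAG1 was at 365, 369.7 and 369.6 CPM in APOA4-KO and 95.2, 96.2 and 93 CPM in HepG2 (log2 fold change 1.96, SE 0.037, adjusted p = 2.8e-18). The receptor kinase EPHA2 was at 436, 450.3 and 421 CPM in APOA4-KO and 151, 150.4 and 150.2 CPM in HepG2, with a log2 fold change of 1.53. LAMC3 was at 2.94, 2.87 and 2.91 CPM in APOA4-KO and 38, 40.6 and 37 CPM in HepG2 (log2 fold change -3.73, SE 0.083, adjusted p = 3.4e-17). LAMC3 was thus lower where JAG1 was higher, and it already stood at -4.17 at 0 h. Fibronectin (FN1, 0.99), the most abundant of the matrix list, missed the limit on the fold. The growth factor BMP4 (1.56), the co-receptor TGFBR3 (1.64) and the activin antagonist FST (2.01) were called higher, and SMAD3 (0.81) and SMAD7 (0.38) were not.

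**Figure D5:**
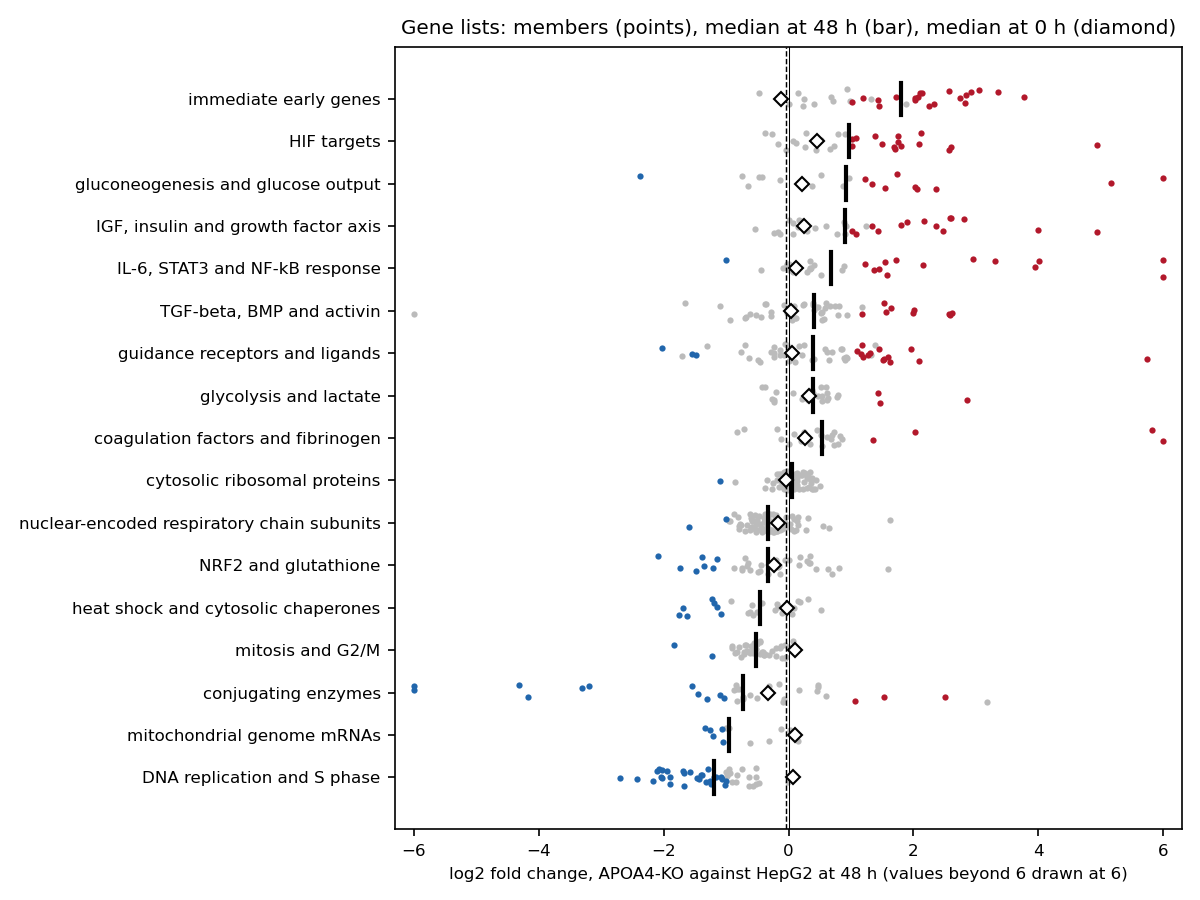
Log2 fold change of APOA4-KO against HepG2 at 48 h for the tested members of 17 gene lists, 1 point per gene, red and blue where called higher and lower. Black bars are list medians at 48 h, diamonds list medians at 0 h, and the dashed line the median of all tested genes, and the lists run from a median of 1.80 for immediate early genes to -1.19 for DNA replication.

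Most genes called at 48 h did not pass the limits of a call before hypoxia, which does not mean that the lines were level then. At 0 h, 851 genes were called between the lines (4.31%), 524 higher in APOA4-KO and 327 lower. Of the 1258 genes called higher at 48 h, 257 were called higher at 0 h too and 3 were called lower. Of the 1418 called lower at 48 h, 173 were called lower at 0 h and 2 higher. Their median log2 fold changes at 0 h were 0.48 and -0.35, beside 1.54 and -1.44 at 48 h, the values that chose them. The test of the 48 h difference against the 0 h difference called 1464 genes (7.42%), 677 towards higher and 787 towards lower levels in APOA4-KO, and against the 24 h difference it called 1712 (8.67%). With scaling by library size alone, the first of these splits became 464 and 1206. Among the genes called at 48 h, the test against 0 h called a larger difference for 480 of the 1258 higher and 557 of the 1418 lower. The rest were not called as having grown since 0 h.

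For some well-counted genes, the lines changed places between 0 h and 48 h. The stress hormone GDF15 was at 1581, 1657 and 1596 CPM in APOA4-KO and 275, 276 and 277 CPM in HepG2 at 48 h, with a log2 fold change of 2.55, against -0.45 at 0 h (adjusted p = 2.1e-10). JAG1 had -0.62 at 0 h (adjusted p = 1.7e-10) and the transporter SLC38A2 0.45 (adjusted p = 2.9e-10). SLC38A2 thus kept its direction, reaching 2.16 at 48 h. Interferon-stimulated genes were higher in APOA4-KO at 0 h, with 11 of 41 called, and at 48 h none was called higher and 4 were called lower (9.76%, near the 7.18% of all tested genes), among them IFI6 (-1.33) and PSMB9 (-1.31). Their median moved by -0.89 from 0 h to 48 h in APOA4-KO and by -0.22 in HepG2.

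Both lines carried the markers of the hepatocyte. All 10 hepatocyte markers were at 1 FPKM or more in both lines, and their sum was 18980 to 19420 FPKM in APOA4-KO and 18620 to 18640 FPKM in HepG2. The summed level of 13 endothelial markers was 9.80 to 10.2 FPKM in APOA4-KO and 5.42 to 6.02 in HepG2, of 10 stellate and fibroblast markers 33.8 to 34.1 and 55.0 to 55.5, and of 10 lymphoid markers 3.06 to 3.39 and 2.69 to 3.36. Within the endothelial sum, ROBO4 alone was at 5.21 FPKM in APOA4-KO and 0.107 FPKM in HepG2, so the other markers together were not higher. The 10 macrophage markers summed to 1451 to 1492 FPKM and 687.7 to 723 FPKM, nearly all of it lysozyme, which HepG2 transcribes at a high level, and VSIG4 was at 0 in both lines, CD163 in APOA4-KO. The 10 cholangiocyte markers summed to 367.8 to 373.1 FPKM in APOA4-KO and 552.8 to 555 FPKM in HepG2. Among the endothelial markers, FCN2 was at 0 in both lines and CLEC14A and EMCN in HepG2, and DCN and LUM of the stellate markers were at 0 in HepG2. Their part in the results above was not tested.

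The difference between the lines also went with gene length. With the protein-coding genes in 5 bins of like size by exon length, from the shortest to the longest, the median log2 fold change at 48 h was -0.19, -0.12, -0.07, 0.05 and 0.17, and at 0 h it ran from -0.10 to 0.06. Long noncoding RNAs (lincRNA and antisense) were called lower more often than higher, 220 against 110 of 2253, while protein-coding genes were called 1011 against 1021 of 14766. Of the nuclear chromosomes, chromosome 11, which carries APOA4, had the lowest median at -0.17, with 11.8% of its 794 genes called lower and 4.66% higher, and at 0 h its median was -0.13. The other nuclear chromosomes lay between -0.11 and 0.06 at 48 h. At 24 h, chromosome 11 was not the lowest, with a median of -0.26 beside -0.30 for chromosome 19 and -0.27 for chromosome 22. The part of gene length and of chromosome in the results above was not tested. Of the genes named as called, ASNS, BAAT, CA9, CCND2, CCNE2, CP, DGAT1, DUSP6, GINS3, GINS4, GOT1, HSPA1B, ICAM1, LYZ, MCM2, NQO1 and RRM2 also have over 10% of their exon bases in another gene, and reads there may have been counted for either.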

How the data were processed

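Poly(A) RNA of HepG2 and APOA4-KO was read as stranded paired-end libraries, and the comparison used 3 libraries of each line at 48 h. The authors used fastp for trimming and HISAT2 for alignment to GRCh38, and deposited whole-number counts per gene without normalization between libraries. The study's methods name featureCounts for counting and the submitters' processing notes name StringTie, and which of them made the deposited counts is not given in the sources used here. They also deposited FPKM values, the counts divided by gene length and library total. Counting settings are not given in the sources used here, and in the 6 libraries counts of 4, 8 and 12 were 2.80 to 3.12, 2.18 to 2.55 and 1.58 to 2.06 times as frequent as their neighbours, so a count need not be 1 read pair. No column of the authors' own comparisons was used.

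The test was that of edgeR 4.0.16 (R 4.3.3). Low genes were removed by filterByExpr over 6 groups, and the rest were scaled with TMM and fitted with the quasi-likelihood method over all 18 libraries, 1 coefficient for each line and time, no covariate and Benjamini-Hochberg adjustment over 19743 genes. SE was derived from the fold change and its F statistic. The members, lists and rules were chosen with earlier results of these data known. The 51 lists were written from general knowledge and are described by counts and medians, without a set test. Named genes were the 15 largest changes in each direction, the 10 most abundant called genes in each direction, up to 4 called members of each list, the 6 largest differences from 0 h in each direction and APOA4, plus list members named for their role. Those taken as largest changes, as most abundant or as called list members had also to be called in each refit without 1 of the 48 h libraries. Positions, gene types and exon overlap came from GENCODE v29 (GRCh38), which held 58254 of the 61806 identifiers, and promoters from RefSeq (GRCh38.p14), matched by symbol for 12831 tested genes. Besides the motifs spelled out in the report, the E-box (CACGTG, which holds the first HIF core) and the DR1 repeat of nuclear receptors were searched, all on both strands.

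Libraries of 1 group differed from each other with a chi-square per gene of 13.0 to 25.5 over 15689 genes and correlated across genes, in log2 CPM, at 0.969 to 0.977. No pair was counted as 1 sample. The chi-square takes each count as 1 read, which need not hold here, so it cannot decide whether the libraries are separate samples. On simulated counts for 19176 genes, the 48 h test called 59 of 98 genes changed by 1.5 on the log2 scale and 79 of 98 changed by 3, with 4 false calls. Alternatives were scaling by library size, DESeq2 1.42.0, no filter or a stricter filter on low counts, the 48 h libraries alone, limma 3.58.1 on log2(FPKM + 1) and log2(FPKM + 0.1), the replicate number as a block, and leaving out each library. Some genes are not reported here.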

Additional observations from a re-analysis of the deposited data

Results flagged for a closer look

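The difference between the lines at 48 h differed from that at 0 h, by the test of the difference itself in the edgeR fit, for 1464 genes. Among the named genes, 12 were singled out because the lines differed in opposite directions at the 2 times, each with an adjusted p under 0.05, and because this test called them. Towards higher levels in APOA4-KO, the 48 h minus 0 h difference on the log2 scale was 3.52 for the RNA-binding protein RBM24, 2.997 for GDF15, 2.91 for IER3, 2.765 for HAMP, 2.57 for JAG1, 2.006 for GADD45B, 1.57 for the transcription factor TBX3 and 1.51 for asparagine synthetase (ASNS). Towards lower levels, it was -2.27 for UHRF1, -1.55 for MT-CO3, -1.48 for MT-CYB and -1.375 for MT-ND1.

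RBM24 was at 19.1, 21.5 and 19.6 CPM in APOA4-KO and 2.62, 2.8 and 3.13 CPM in HepG2 at 48 h, and its log2 fold change was -0.71 at 0 h and 2.81 at 48 h. TBX3 went from -0.24 to 1.33 and ASNS from -0.42 to 1.09. The 0 h differences of UHRF1 (0.16, adjusted p = 0.042) and of the 3 mitochondrial mRNAs (0.11 to 0.27) were small beside those at 48 h.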

How the results depend on the processing

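No named gene called at 48 h changed sign under an alternative, but the balance of calls did turn. The calls were 1258 higher and 1418 lower, against 1465 and 1379 with DESeq2, 1239 and 1197 with the 48 h libraries alone, 1065 and 906 at a mean of at least 1 CPM, where fewer genes were tested, and 848 and 753 among protein-coding genes with at most 10% shared exon bases, a choice made after seeing the data. For the difference from 24 h, it went from 777 and 935 to 957 and 902 with DESeq2. On log2(FPKM + 1) with limma, which understates the change of low genes, 755 genes were called at 48 h, 294 higher and 461 lower, and 118 of the 182 called named genes, and CCAAT was in 49.6% of promoters of genes called lower and TATAAA in 17.5% of those of genes called higher. On log2(FPKM + 0.1), 719 were called higher. The median of interferon-stimulated genes was -0.22 on log2(FPKM + 1), beside -0.34, and that of cytosolic ribosomal proteins was 0.06, 0.11 with DESeq2, -0.09 by library size and -0.08 on log2(FPKM + 1). The protein-coding genes with little shared sequence gave 1601 calls. Scaling by library size alone gave 997 higher and 1935 lower at 48 h, 464 and 1206 for the difference from 0 h, and 492 and 1621 for that from 24 h. Without 1 library at a time, 2517 to 2610 genes were called at 48 h. Of the called named genes, 179 to 181 were called again. Most of them were chosen as called in these same refits, so this is no separate support. With scaling by library size, ACSL5, ASNS, GABARAPL1, LCAT (12.8% of exon bases in another gene), PLIN2 and SOX9 fell under the limit on the fold, and with DESeq2 MT-ND2 and PGC did. CXCL1 lost its call with the 48 h libraries alone (edgeR adjusted p = 0.06). Of genes named by the rule, CORO7-PAM16 went from 3.71 to 1.18 without APOA4-KO replicate 1 and SLX1B-SULT1A4 from -3.23 to -1.13 without HepG2 replicate 1, and 100% and 80.2% of their exon bases lie in other genes. The cause of these changes was not tested.

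With the replicate number as a block, 2605 genes were called, 1212 higher and 1393 lower. Deviations of same-numbered libraries correlated at 0.0115, -0.0522 and 0.00175, and those of other pairs at -0.08 to 0.0818. With 3 libraries in a group, this cannot decide whether the numbers pair them.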

Other observations

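Genes of stress responses inside the cell were split. Of 32 genes of the unfolded protein response, PPP1R15A (1.68) and the sensor ERN1 (1.46) were called higher in APOA4-KO, and the secreted chaperone partners SDF2L1 (-1.79), CRELD2 (-1.79) and MANF (-1.07) lower, while the main chaperone HSPA5 had a log2 fold change of -0.03. Of 36 histone demethylases and other oxygen-dependent dioxygenases, with their partners, 5 were called higher and 3 lower, and the demethylase KDM7A was at 109.7, 109.9 and 109.0 CPM in APOA4-KO and 18.9, 19.9 and 19.4 CPM in HepG2 (log2 fold change 2.5, SE 0.061, adjusted p = 1.1e-16). KDM6B (1.42) was called higher, and KDM3A (0.91) missed the limit on the fold. The HIF alpha subunit HIF3A, at 1.28, 1.61 and 1.56 CPM in APOA4-KO and 0.0850, 0.0949 and 0.143 CPM in HepG2, had a log2 fold change of 3.76.

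The amino acid carrier SLC38A2 was at 2377, 2371 and 2392 CPM in APOA4-KO and 524, 536 and 533 CPM in HepG2 (log2 fold change 2.16, SE 0.029, adjusted p = 3e-20), whereas SLC7A5 (-0.22) was not called. Of 53 genes of adhesion and junctions, 6 were called higher (11.3%) and 4 lower (7.55%), with desmoplakin DSP at 1.14 and the keratin KRT8 at -1.28. Of 20 bile acid genes, the phospholipid pump ABCB4 (3.01) and BAAT (1.74) were called higher and AKR1D1 (-1.63) lower. In the urea cycle and amino acid list, ARG1 (1.84) and HAL (2.26) were called higher and the methyltransferase GNMT (-2.54) lower. Of 10 lymphoid markers, 1 was called higher, and of 20 fetal liver genes, 5 were called higher and 1, AKR1B10 (-2.1), lower, with the oncofetal GPC3 at 0.34 and not called.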
